A study of Mus musculus with 2 samples.

Results

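A set of 8 genes of naive T cell homing and survival, the activation gene Cd69 among them, was followed through the pancreatic islets of NOD/ShiLtJ mice. Autoimmune diabetes arises spontaneously in this strain. The genes were Il7r, Lef1, Tcf7, Klf2, S1pr1, Cd69, Satb1 and Dapl1. They were chosen by name from a list of naive and resting lymphocyte genes, and all 8 were found among the 31053 gene rows of both count tables. Islet cells of mice aged 15 weeks were profiled by 10x Genomics 3' single-cell RNA sequencing. One library came from mice fed 16% HC with 4% gluten and the other from mice fed 20% HC. The labels do not expand HC. Cells of 3 mice were pooled for each library, all were of the same strain and age, and no treatment other than the diet is named. With 1 library per diet no test between diets was possible. Bracketed values are 95% intervals that cover counting error only, so that differences between mice, islet preparations and libraries are not in them. In each pair of values the library with gluten comes first. A log2 ratio between diets has the level with gluten as its numerator and the level with HC alone as its denominator.

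Naive T cells recirculate between blood and lymph nodes and persist without dividing. The transcription factor KLF2 drives expression of the sphingosine 1-phosphate receptor S1PR1, through which lymphocytes leave tissue along a lipid gradient. The surface protein CD69, induced early after activation, binds S1PR1 and removes it from the membrane. Interleukin 7, received through the chain encoded by Il7r, maintains survival of resting T cells. TCF-1 (Tcf7) and LEF-1 (Lef1) are related transcription factors that act in T cell development and in the quiescent and memory states. SATB1 is a chromatin organiser of thymocytes and naive T cells. Dapl1 is known as a gene of naive and stem-like CD8 T cells.

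The deposited tables held 8200 and 7758 barcodes with 88268070 and 116900677 UMIs (unique molecular identifiers, 1 for each captured RNA molecule), and 15 barcodes occurred in both. After filtering, 7122 and 7111 cells remained. T cells numbered 1234 and 2198, with medians of 2245 and 2747 UMIs per cell, and B cells numbered 996 and 1148. The kinds were gated on marker UMIs in single cells, with none of the 8 genes used. A naive-gated cell held at least 1 UMI of a naive marker, Ccr7 among them, and UMIs of at most 1 effector or memory gene. An effector- or memory-gated cell held no naive marker UMI and at least 2 such genes. This gave 49 and 113 naive-gated and 163 and 229 effector-gated CD8 cells, and 24 and 129 naive-gated and 80 and 219 memory-gated CD4 cells without Foxp3. The gated T cells had UMIs of all 8 T markers, summing to 8105 and 8324 CPM (UMIs of a gene per 1000000 UMIs of the kind). In B cells the same markers summed to 20.9 and 26.8 CPM. The T gate required, and the B gate limited, UMIs of 6 of these 8 markers. The sums therefore follow from the gates and do not test them.

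RNA of acinar and hormone genes counted in T cells differed between the libraries, and its source was not tested. In T cells, acinar enzyme genes summed to 727 and 100.3 CPM and islet hormone genes to 16580 and 9605 CPM. A list of 14 immediate early genes, which stress and dissociation as well as activation induce, summed to 8219 and 5243 CPM. The naive gate also admitted different cells. Among naive-gated CD8 cells, 81.6% and 66.4% held Ccr7, and among naive-gated CD4 cells 87.5% and 63.6% did. The part of these differences in the ratios below was not tested, except that each naive gate was also run on 1 marker alone.

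Between naive-gated and effector-gated CD8 cells, all 8 genes were higher in the naive-gated cells of both libraries. A gene was called when it was at least 2-fold apart in the same direction in both libraries and had at least 50 UMIs in the group with the higher level. Of the 5 genes with enough UMIs in both libraries, 3 were called higher (Lef1, Satb1 and Dapl1), while 0.783% of the 1022 genes measured this way were higher and 8.41% were lower. That share is not a like baseline. Its 8 genes called higher included these 3 and the gate gene Ccr7. Naive-gated cells held fewer UMIs in all, 150880 against 492013 with gluten, so a gene higher there needed a higher CPM to be measured. With gluten, Lef1 and Dapl1 reached the minimum only through the naive-gated cells, at 55 against 17 UMIs and 70 against 6. The count was 1 when 2 UMIs of a marker were needed to admit a cell, and 2 or 0 with the naive gate narrowed to 1 marker or the other. The median log2 ratio of the 8 genes was 2.06 with gluten and 1.08 with HC alone, beside medians of -0.35 and -0.24 over all measured genes.

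Dapl1 had the largest contrast. It stood at 464 [362 to 586] and 525 [454 to 604] CPM in naive-gated CD8 cells and at 12.2 [4.48 to 26.5] and 31.1 [20.5 to 45.3] CPM in effector-gated CD8 cells. The log2 ratio was 5.25 [4.06 to 6.74] with gluten and 4.08 [3.49 to 4.71] with HC alone. In naive-gated CD4 cells its level was 93.8 and 308 CPM, and memory-gated CD4 cells held 0 and 7 UMIs. Foxp3-positive T cells had no Dapl1 UMI in either library, where 3 UMIs would have stood at 19.0 and 6.70 CPM. Dapl1 RNA was thus at its highest in the naive-gated CD8 cells of both libraries among the 11 kinds of lymphocyte.

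Lef1 followed the naive gate in every lineage. In CD8 cells it was at 365 [275 to 474] and 670 [590 to 759] CPM when naive-gated, and at 34.6 [20.1 to 55.3] and 83.0 [65.0 to 105] CPM when effector-gated. The log2 ratios were 3.40 and 3.01. In CD4 cells the ratios were 2.46 [1.16 to 3.81], on 13 and 10 UMIs, and 3.78 [3.32 to 4.26]. T cells without Cd4 or Cd8 UMIs gave 3.38 and 3.02. In those cells Lef1 and Satb1 were 2 of the 6 measured genes that were called higher in the naive gate, where 0.583% of 1200 genes were. The 7 genes of that share include Lef1 and Satb1 themselves, and the naive-gated cells again held fewer UMIs in all. Satb1 was also higher in naive-gated cells of each lineage. In CD8 cells it was at 391 and 434 CPM when naive-gated and at 169 and 134 CPM when effector-gated, with log2 ratios of 1.21 [0.71 to 1.71] and 1.70 [1.35 to 2.06]. Its ratios were 2.46 [1.56 to 3.38], on 26 and 20 UMIs, and 2.83 [2.38 to 3.31] in CD4 cells, and 1.84 and 2.35 in T cells without Cd4 or Cd8.

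Tcf7, although related to Lef1, hardly separated the gates. It was at 292 and 303 CPM in naive-gated and at 193 and 244 CPM in effector-gated CD8 cells. The log2 ratio was 0.59 [0.04 to 1.13] with gluten and 0.31 [-0.03 to 0.65] with HC alone. In CD4 cells both intervals spanned 0, at 0.61 [-0.26 to 1.41] and 0.13 [-0.22 to 0.48]. Effector- and memory-gated islet T cells therefore held Tcf7 RNA at levels between 193 and 298 CPM in these libraries. The lowest T cell level of Tcf7 was in cycling cells, at 112 and 106 CPM.

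**Figure D1:**
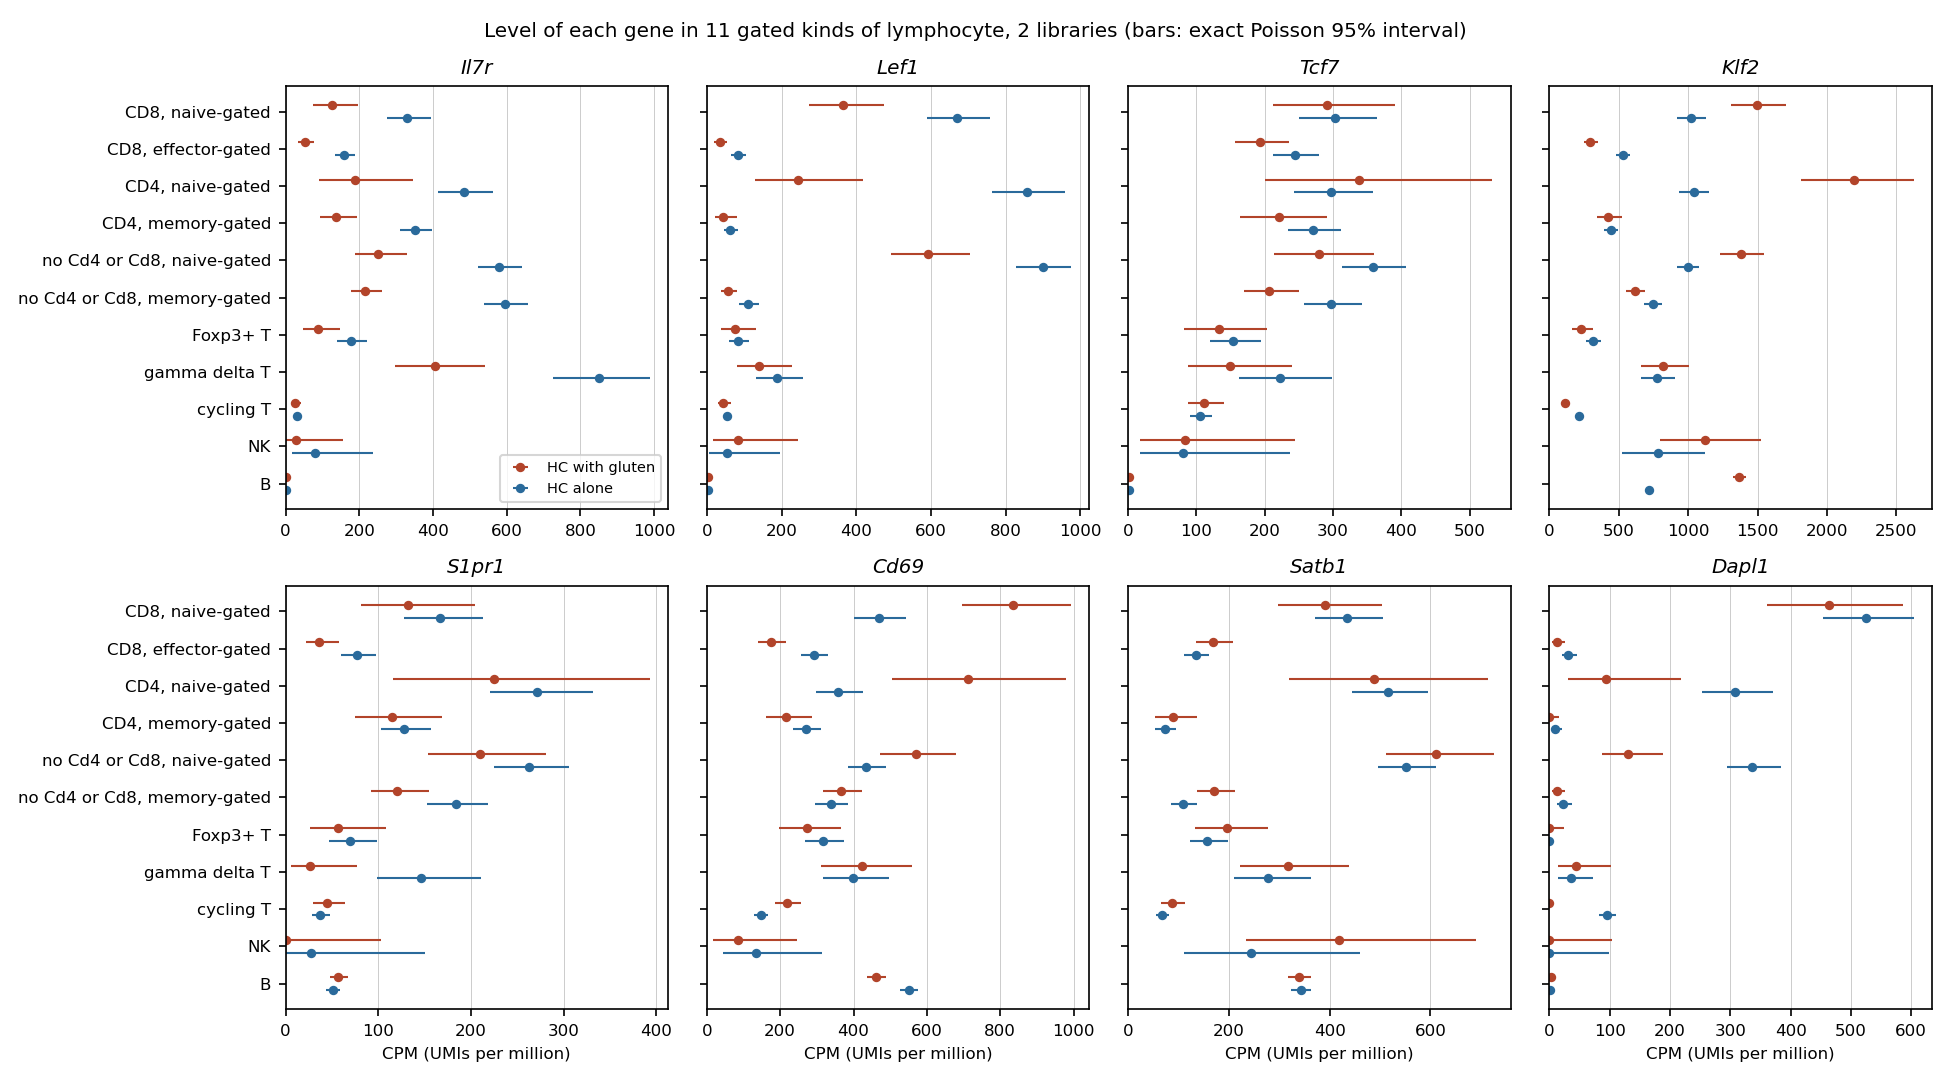
CPM of each gene (horizontal axis, own scale in each panel) in 11 gated kinds of lymphocyte (vertical axis). Points are 1 library each, red for HC with gluten and blue for HC alone, and bars are exact Poisson 95% intervals; Lef1, Satb1 and Dapl1 stand highest in a naive-gated kind, Il7r in gamma delta T cells, and Il7r, Lef1, Tcf7 and Dapl1 are near 0 in B cells.

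Il7r was not a gene of the naive gate alone. Gamma delta T cells had its highest level in both libraries, at 405 [297 to 541] and 850 [726 to 988] CPM. Naive-gated CD4 cells held 188 and 484 CPM and memory-gated CD4 cells 137 and 352 CPM, a log2 ratio of 0.45 [-0.74 to 1.52] with gluten and 0.46 [0.17 to 0.75] with HC alone. T cells without Cd4 or Cd8 UMIs gave intervals that spanned 0 in both libraries, at 0.22 and -0.038. Of the 3 lineages, only CD8 cells had Il7r beyond 2-fold between the gates, with log2 ratios of 1.25 and 1.05, the first on 19 and 26 UMIs. Foxp3-positive T cells were low, at 88.5 and 176 CPM, and cycling T cells lower, at 26.0 and 32.4 CPM.

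The homing genes Klf2 and S1pr1 and the early activation gene Cd69 were higher in naive-gated CD8 cells of both libraries, but none of the 3 met the 2-fold call there. Klf2 was at 1498 [1309 to 1706] and 1019 [919 to 1127] CPM in naive-gated CD8 cells and at 295 [249 to 347] and 529 [482 to 580] CPM in effector-gated CD8 cells. Its log2 ratio was 2.35 [2.04 to 2.66] with gluten and 0.94 [0.74 to 1.14] with HC alone, just short of 2-fold in the second library. In CD4 cells Klf2 was the single gene of the set with enough UMIs in both libraries, and it was called, with ratios of 2.37 and 1.24. Klf2 was also the only 1 of the 471 genes measured there that was called higher (0.212%), so that share gives no comparison. Naive-gated CD4 cells with gluten held 53318 UMIs against 225796 in memory-gated cells, so a gene higher there needed a higher CPM to be measured. S1pr1 was at 133 and 166 CPM in naive-gated and at 36.6 and 77.3 CPM in effector-gated CD8 cells, with log2 ratios of 1.86 [0.86 to 2.86], on 20 and 18 UMIs, and 1.11 [0.58 to 1.63]. Cd69 was at 835 and 469 CPM in naive-gated and at 175 and 292 CPM in effector-gated CD8 cells, with ratios of 2.26 [1.85 to 2.67] and 0.69 [0.40 to 0.97]. The intervals of the 2 libraries, which cover counting error only, did not overlap for Klf2 or for Cd69 in CD8 cells. How many of all measured genes did the same was not counted, and the naive gate admitted different cells. No difference between the libraries is therefore read from it. In CD4 cells the ratios of S1pr1 were 0.97 [-0.15 to 2.00], an interval that spanned 0, and 1.09 [0.66 to 1.51]. Those of Cd69 were 1.72 [1.06 to 2.36] and 0.40 [0.07 to 0.73]. T cells without Cd4 or Cd8 had smaller ratios, at 0.81 and 0.52 for S1pr1, 0.64 and 0.36 for Cd69 and 1.17 and 0.42 for Klf2.

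**Figure D2:**
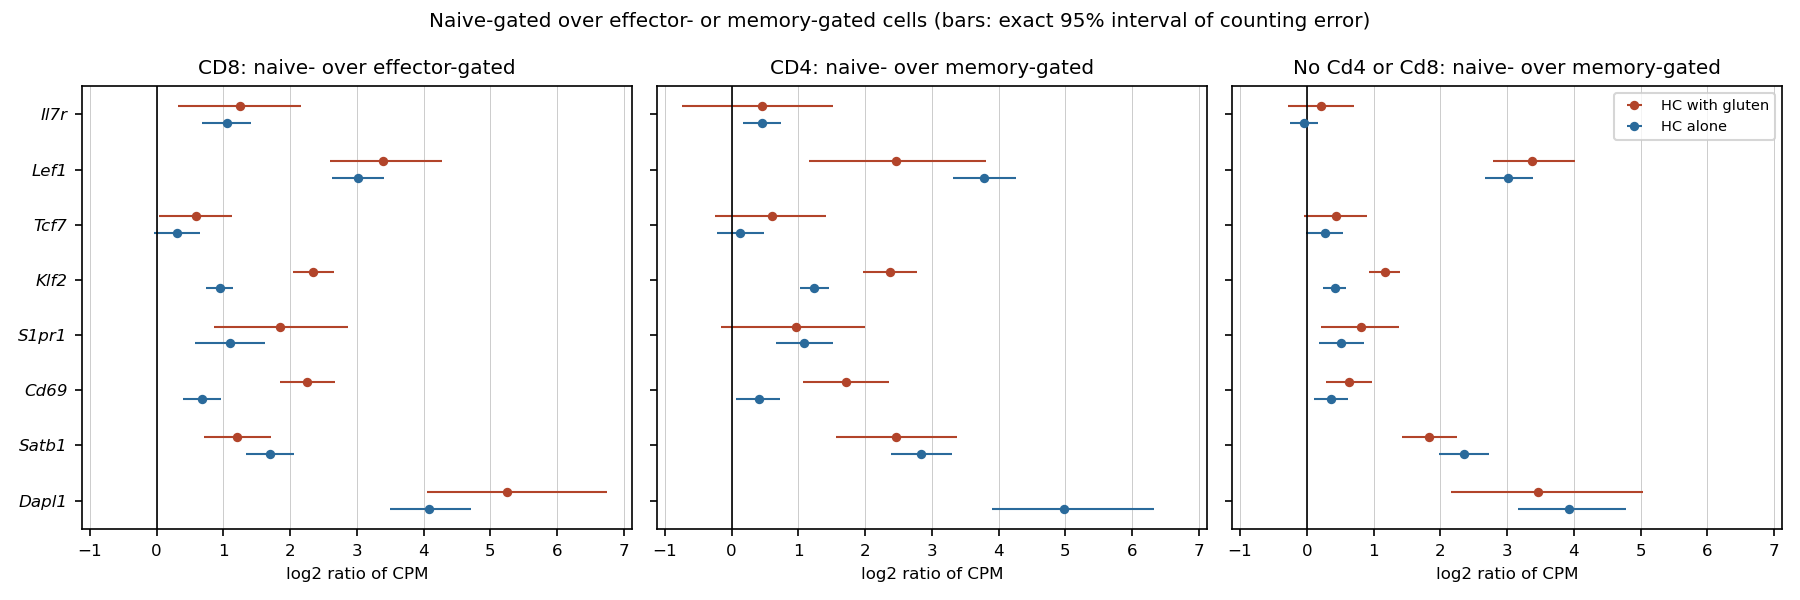
Log2 ratio of CPM (horizontal axis) of each gene (vertical axis) in naive-gated over effector- or memory-gated cells, in CD8 cells, CD4 cells and T cells with no Cd4 or Cd8 UMI. Points are 1 library each and bars exact 95% intervals of counting error; Dapl1 with gluten is left out of the CD4 panel because memory-gated CD4 cells held 0 UMIs there.

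Several of the genes were seen together in single naive-gated cells. After each cell was thinned to 1000 UMIs, at least 3 of the 7 genes other than Cd69 had a UMI in 32.7% [19.9 to 47.5] and 54.5% [44.8 to 63.9] of naive-gated CD8 cells. The share was 5.70% [2.64 to 10.5] and 8.81% [5.46 to 13.3] in effector-gated CD8 cells and 1.44% and 1.85% in B cells. Among all T cells, Dapl1 was found in 10.2% and 21.0% of cells with Lef1 and in 4.15% and 7.32% of cells without it. Satb1 was found in 37.7% and 35.9% of cells with Lef1 and in 19.9% and 16.8% of cells without it. These shares pool naive- and effector-gated kinds, and within naive-gated CD8 cells the pattern was not seen. There Dapl1 was found in 27.8% [9.69 to 53.5] and 34.8% [21.4 to 50.2] of cells with Lef1 and in 41.9% [24.5 to 60.9] and 34.8% [23.5 to 47.6] of cells without it. Satb1 was found in 16.7% and 37.0% of those with Lef1 and in 22.6% and 33.3% of those without it. Cd69 and S1pr1 RNA did not avoid each other: Cd69 was found in 30.6% [22.9 to 39.1] and 24.4% [19.9 to 29.2] of T cells with S1pr1 and in 27.2% and 24.4% of T cells without it.

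Between the diets, 3 of the 8 genes were at least 2-fold lower with gluten over all T cells, Il7r, Lef1 and Dapl1, and 0 were at least 2-fold higher. Of the 8138 genes measured in T cells, 3.26% were lower by as much and 1.60% higher. The median log2 ratio of the 8 genes was -0.38, beside -0.14 over all measured genes. Il7r was at 151 [138 to 164] and 339 [326 to 352] CPM, a log2 ratio of -1.17 [-1.30 to -1.04]. Lef1 was at 143 and 302 CPM, a ratio of -1.08 [-1.22 to -0.94]. Dapl1 was at 61.5 and 146 CPM, a ratio of -1.25 [-1.46 to -1.04]. S1pr1 (-0.44 [-0.61 to -0.27]) and Tcf7 (-0.31 [-0.44 to -0.19]) were lower by less than 2-fold. Klf2 (-0.043 [-0.12 to 0.029]) and Satb1 (0.071 [-0.047 to 0.19]) had intervals that spanned 0, and Cd69 was higher by 0.19 [0.10 to 0.29].

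The mix of T cell kinds also differed between the libraries. Naive-gated cells made up 16.7% [12.6 to 21.4] and 22.9% [19.3 to 26.9] of CD8 cells and 12.4% [8.13 to 17.9] and 24.8% [21.1 to 28.7] of CD4 cells. With the T cells of the library with gluten weighted to the mix of kinds of the other library, the log2 ratios were -1.24 for Il7r, -0.96 for Lef1 and -1.19 for Dapl1. Lef1 was then short of 2-fold. T cells outside the 9 gated kinds were weighted as a single further class, whose own mix was not resolved.

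Il7r was lower with gluten in all 9 gated kinds of T cell, and its interval lay below 0 in 8 of them. The log2 ratio was -1.39 [-2.17 to -0.68] in naive-gated and -1.59 [-2.25 to -0.98] in effector-gated CD8 cells. It was -1.37 and -1.36 in naive- and memory-gated CD4 cells, -0.99 in Foxp3-positive T cells and -1.07 in gamma delta T cells. Cycling T cells gave -0.32 [-1.19 to 0.49]. The 8 kinds other than cycling cells lay between -1.59 and -0.99, although their levels with gluten ran from 52.8 CPM in effector-gated CD8 cells to 405 CPM in gamma delta T cells.

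By kind, 1 of the 8 measured genes was 2-fold lower in naive-gated CD8 cells (5.03% of 715 genes) and 3 of 7 in effector-gated CD8 cells (2.70% of 2188 genes). In naive-gated CD4 cells 3 of 6 were, beside 14.6% of 570 genes. In all 3 kinds the genes so called reached the minimum only through the library with HC alone. In naive-gated CD4 cells Il7r, Lef1 and Dapl1 had 10, 13 and 5 UMIs with gluten. That kind had unequal totals, at 53318 and 357160 UMIs.

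Lef1 was lower in 9 of 9 kinds, with intervals below 0 in 5. It reached -1.81 [-2.74 to -1.02] in naive-gated CD4 cells, on 13 and 306 UMIs, and was -0.88 [-1.33 to -0.45] in naive-gated CD8 cells. Dapl1 differed by kind. It was -0.18 [-0.59 to 0.22] in naive-gated CD8 cells, where the level was highest, and -1.36 [-1.99 to -0.79] in naive-gated T cells without Cd4 or Cd8. With the naive gate narrowed to 1 marker, the CD8 value for Dapl1 ranged from -0.97 [-1.70 to -0.30] to 0.037 [-0.42 to 0.48], depending on the marker. In cycling T cells Dapl1 had 0 and 168 UMIs, and 150 of the 168 lay in 6 cells. With a floor of 3 UMIs in place of 0 it was 20.8-fold lower with gluten, and the upper end of the log2 interval was -4.06. Without cycling cells the ratio of Dapl1 over T cells was -1.10 [-1.31 to -0.89].

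Klf2 and Cd69 lay on opposite sides in naive-gated and effector-gated CD8 cells. Klf2 was higher with gluten in naive-gated CD8 cells, by 0.56 [0.31 to 0.80], and in naive-gated CD4 cells, by 1.08 [0.77 to 1.38], at 2194 and 1039 CPM. It was lower in effector-gated CD8 cells, at -0.84 [-1.12 to -0.57], and in cycling T cells, at -0.88 [-1.27 to -0.52]. In cycling cells with HC alone, 12 cells with at least 10 UMIs held 194 of the 368 Klf2 UMIs, and with gluten 1 such cell held 15 of 74. Cd69 was higher in naive-gated CD8 cells by 0.83 [0.49 to 1.17] and in naive-gated CD4 cells by 0.99 [0.43 to 1.52], and lower in effector-gated CD8 cells at -0.74 [-1.11 to -0.38]. The difference between the kinds was not tested, and how many of all measured genes lay on opposite sides was not counted. The immediate early list summed to 7841 and 5281 CPM in naive-gated and to 8845 and 4699 CPM in effector-gated CD8 cells, so it was higher with gluten in both, and its part in these ratios was not tested. S1pr1 was lower in 8 of 9 kinds, with intervals below 0 in 3. Satb1 intervals lay above 0 in 1 of 9 kinds and spanned 0 in the others.

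**Figure D3:**
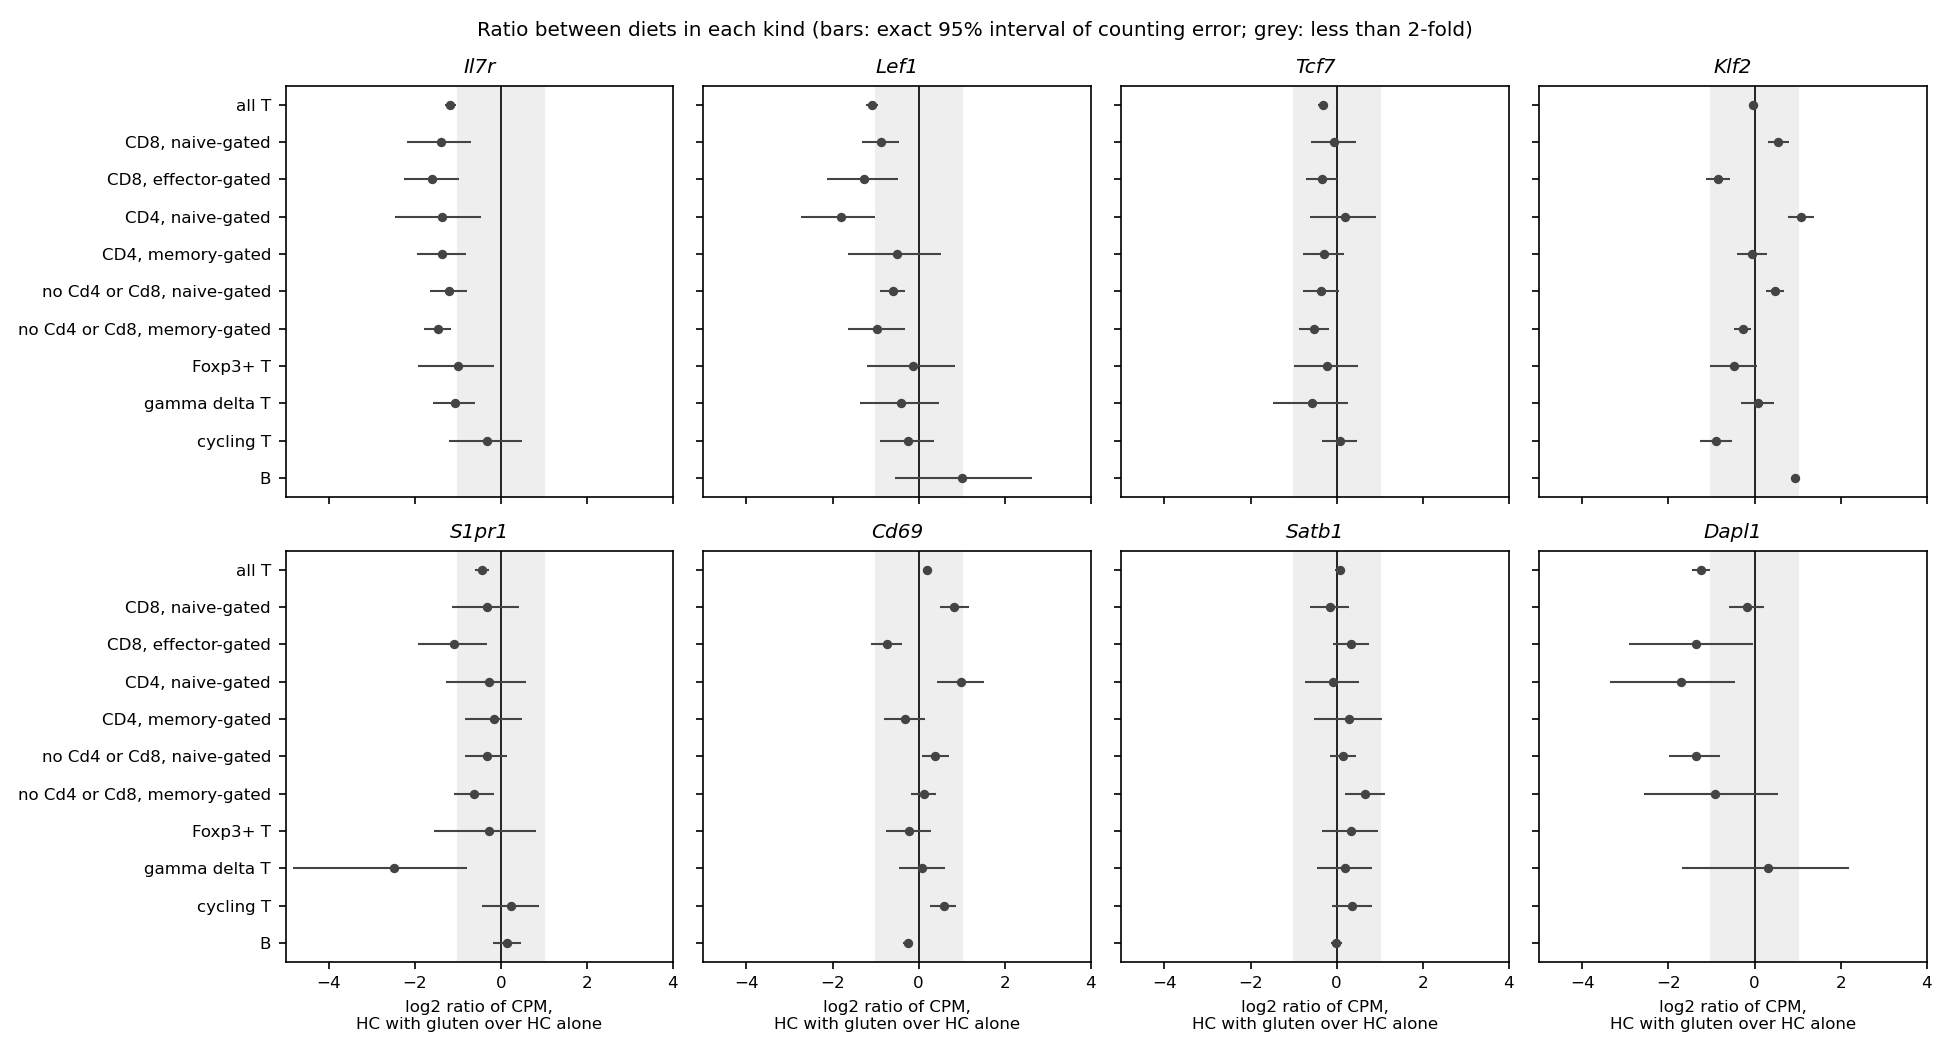
Log2 ratio of CPM, HC with gluten over HC alone (horizontal axis), for each gene in all T cells, the 9 gated kinds of T cell and B cells (vertical axis). Bars are exact 95% intervals of counting error, the grey band is less than 2-fold, and pairs with under 10 UMIs in all or with 0 UMIs in a library are left out; the points of Il7r lie left of 0 in all T cell kinds, while those of Klf2 and Cd69 lie on both sides.

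For Il7r, Lef1 and Dapl1 the share of T cells with a UMI was lower with gluten, as their levels were. Il7r was found in 27.5% [25.0 to 30.1] and 47.7% [45.6 to 49.8] of T cells as sequenced and in 15.3% and 28.9% when 1179 and 2134 cells were thinned to 1000 UMIs. For Lef1 the thinned shares were 14.9% and 27.3%, and for Dapl1 4.96% and 11.2%. In B cells, which should lack these 3 genes, the thinned shares were 0.114% and 0.0839% for Il7r, 0.455% and 0.288% for Lef1 and 0.277% and 0.0451% for Dapl1, at median depths of 2110 and 2671 UMIs. The T cell shares were far above that background. For Klf2 the thinned share was lower with gluten, at 38.9% and 45.8%, while its CPM differed by less than counting error, so no order is read from it. Shares as sequenced were lower with gluten for Cd69 (45.4% and 49.0%) and Satb1 (40.0% and 43.5%), although their CPM was not. Their thinned shares were 27.2% and 25.3% for Cd69 and 21.8% and 21.6% for Satb1.

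**Figure D4:**
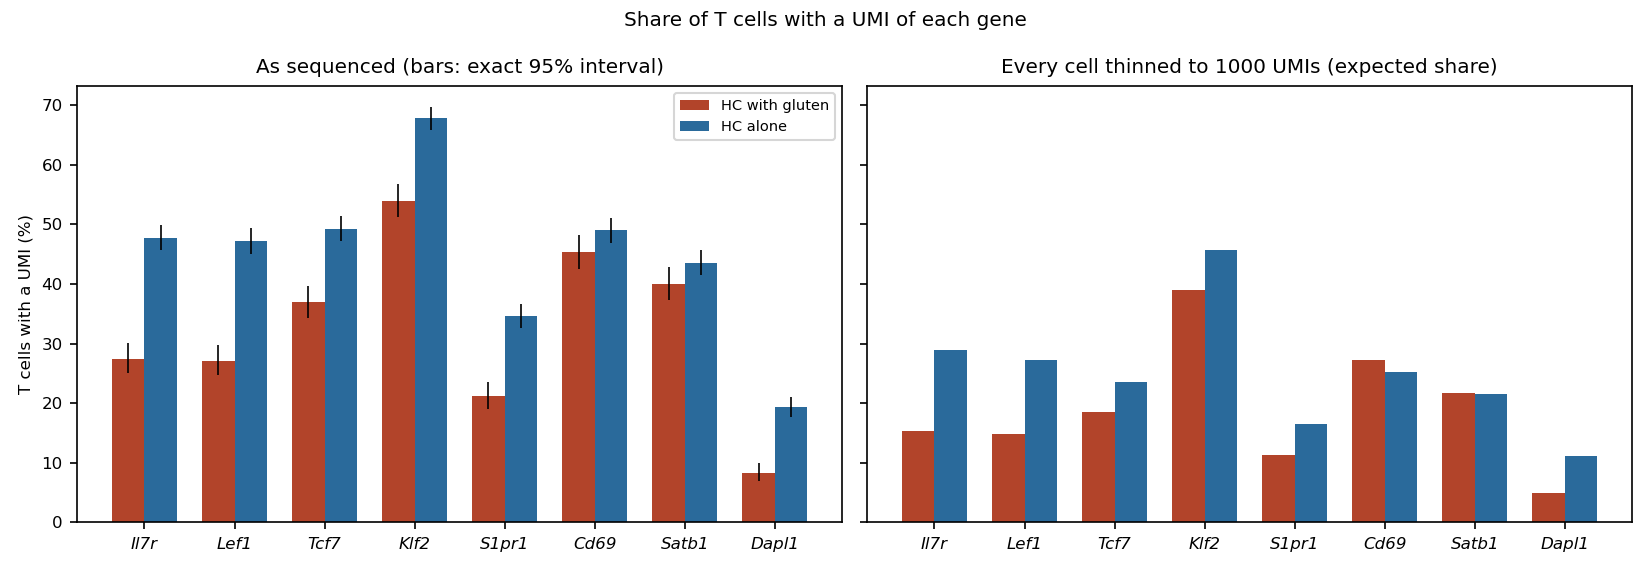
Percent of T cells with at least 1 UMI of each gene (vertical axis) in the library with gluten (red) and with HC alone (blue). The left panel shows cells as sequenced with exact Clopper-Pearson 95% intervals, and the right panel the share expected when each cell is thinned to 1000 UMIs; Il7r, Lef1 and Dapl1 stay lower with gluten after thinning, and Satb1 stands at 21.8% and 21.6%.

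B cells carried only part of the set. Over all B cells against all T cells, 4 of the 8 genes were called, all lower in B cells, beside 10.4% of 6333 genes lower and 5.89% higher. Il7r was at 2.37 and 0.85 CPM in B cells, Lef1 at 3.95 and 1.97, Tcf7 at 0.79 and 0.56, and Dapl1 at 1.97 and 0.56, each on 10 UMIs or fewer. These 4 genes reached the minimum of UMIs only through T cells, so the share of all genes is not a like baseline for the count. Klf2, S1pr1, Cd69 and Satb1 were well represented in B cells. Cd69 was at 462 and 551 CPM, above T cells by 0.37 and 0.81 on the log2 scale, and Satb1 was at 340 and 343 CPM, above T cells by 0.54 and 0.62. S1pr1 was at 56.9 and 51.3 CPM, below T cells by -0.89 and -1.48. Klf2 exceeded T cells by 1.18 [1.10 to 1.26] with gluten and by 0.20 [0.13 to 0.27] with HC alone, and the second difference turned to -0.037 when cycling T cells were left out and to -0.024 for a mean over cells.

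Between the diets, 0 of the 4 genes measured in B cells were 2-fold apart, where 4.58% of 6020 genes were. Klf2 came closest, at 1369 and 715 CPM, a log2 ratio of 0.94 [0.86 to 1.01], and it passed 2-fold under median-of-ratios scaling. Cd69 was lower in B cells with gluten, at -0.25 [-0.36 to -0.15], where T cells had 0.19. The immediate early list summed to 5926 and 4935 CPM in B cells. Natural killer cells were too few to rank, with 19 and 13 cells. They held 27.9 and 81.0 CPM of Il7r, on 1 and 3 UMIs. Klf2, at 40 and 29 UMIs, was at 1118 and 783 CPM. Il7r, Tcf7 and Cd69 were 2-fold lower than in T cells in both libraries, on 1 to 5 UMIs each, where 4.81% of 2183 genes were. They reached the minimum of UMIs only through T cells, and each had an interval that spanned 0 in 1 library. With gluten these were Il7r [-7.74 to 0.053] and Tcf7 [-3.51 to 0.32], and with HC alone Cd69 [-2.84 to 0.0094].

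Outside lymphocytes, Klf2 and S1pr1 were genes of endothelium, as is known from blood vessels under flow. Endothelial cells held 922 and 1418 CPM of Klf2 and 262 and 355 CPM of S1pr1. Klf2 was lower there with gluten, at -0.62 [-0.73 to -0.51]. The immediate early list summed to 16436 and 8429 CPM in these cells. In beta cells Klf2 was at 63.7 and 22.9 CPM, a log2 ratio of 1.48 [1.37 to 1.58], and the immediate early list summed to 8937 and 3044 CPM. The part of that list in the Klf2 ratios was not tested. Dapl1 was found at 25.6 and 30.1 CPM in beta cells and at 38.4 and 42.7 CPM in alpha cells, against 1.97 and 0.56 CPM in B cells. Cd69 in macrophages was at 179 and 80.0 CPM, a log2 ratio of 1.16 [0.86 to 1.46].

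The genes are all protein-coding. In GENCODE vM21 (GRCm38) Il7r lies at chr15:9505788-9530176 on the minus strand, Lef1 at chr3:131110471-131224356 on the plus strand, Tcf7 at chr11:52252371-52283014 on the minus strand and Klf2 at chr8:72319033-72321656 on the plus strand. S1pr1 lies at chr3:115710433-115715072 (minus), Cd69 at chr6:129267325-129275436 (minus), Satb1 at chr17:51736187-51833290 (minus) and Dapl1 at chr2:59484653-59505020 (plus). Genes on the opposite strand within Lef1 (Gm43352, 14 and 53 UMIs in T cells) and Tcf7 (A630014C17Rik, 2 and 8 UMIs) were counted apart, as was Gm26551 within Tcf7 (22 and 97 UMIs); how reads shared with them were assigned is not given in the sources used here.

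RefSeq promoter windows (GRCm38.p6) were at hand for 6 of the 8 genes, with 14 start sites. The 250 bases before a start are shown for Klf2, whose ratio between diets lay on either side of 0 by kind, and for Lef1 and Dapl1, which separated the gates most. Letters in capitals match the MEF2 type (CTA and TAG with any 4 bases between) or CACCC (the KLF type) in Klf2, at chr8:72318812-72319061 on the plus strand. In Lef1, at chr3:131110047-131110296 on the plus strand, they match CACCC, and in Dapl1, at chr2:59484403-59484652 on the plus strand, TGTTTAC (the FOXO type). Both strands were searched.
Klf2: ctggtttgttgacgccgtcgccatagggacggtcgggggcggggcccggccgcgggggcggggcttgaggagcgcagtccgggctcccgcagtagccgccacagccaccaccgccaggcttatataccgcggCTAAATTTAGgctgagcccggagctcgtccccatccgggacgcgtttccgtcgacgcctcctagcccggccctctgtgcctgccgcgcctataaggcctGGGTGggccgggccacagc
Lef1: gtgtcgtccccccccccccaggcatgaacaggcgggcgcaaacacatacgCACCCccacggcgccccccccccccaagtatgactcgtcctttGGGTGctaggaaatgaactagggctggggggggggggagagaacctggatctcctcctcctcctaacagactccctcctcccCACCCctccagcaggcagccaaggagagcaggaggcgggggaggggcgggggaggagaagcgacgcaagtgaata
Dapl1: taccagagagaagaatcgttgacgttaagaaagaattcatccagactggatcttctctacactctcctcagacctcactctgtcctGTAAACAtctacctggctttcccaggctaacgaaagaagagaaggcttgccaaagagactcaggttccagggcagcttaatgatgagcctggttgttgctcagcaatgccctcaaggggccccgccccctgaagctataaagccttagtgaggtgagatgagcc

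The MEF2 type match of Klf2 begins 118 bases before the start, and 3.20% of all 32851 windows of this length hold that motif. TGTTTAC in Dapl1 begins 164 bases before the start and occurs in 3.17% of windows. CACCC was found at 11 of the 14 starts but also in 52.0% of all windows. The AP-1 type TGANTCA was found at 0 of the 14 starts and in 6.75% of windows. Il7r had no match to any of the 6 motifs searched, which included CTTTGA (TCF and LEF type, 13.8% of windows) and CCGGAAG (ETS type, 6.91%). A match is a string of letters and does not show binding.

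Genes whose levels followed each member were ranked by Pearson's r of log2(CPM + 10) over 22 points, 11 kinds of lymphocyte in 2 libraries. The points share libraries and depths, and the B cell points are near 0 for 4 of the genes. Tcf7 was most like Fyb (r = 0.96), an adaptor gene of T cell receptor signalling. Il7r was most like Kbtbd11 (0.94) and Arl4c (0.89). Lef1 was most like Npc2 (0.90) and Igfbp4 (0.86). Satb1 had Plaur (0.82) among its 3 most similar genes. Ribosomal protein genes led for Dapl1 (Rpl18, 0.92), Cd69 (Rps19, 0.91), S1pr1 (Rps13, 0.86) and Klf2 (Rps27, 0.83). Within the set, Il7r and Tcf7 (0.83), Lef1 and Dapl1 (0.83) and Klf2 and Satb1 (0.79) lay closest, and Tcf7 and Satb1 furthest apart (-0.031).

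Other genes of the same pathways were compared between the diets in T cells, against the 4.85% of genes 2-fold apart in either direction. Of 16 other homing and quiescence genes, all measured, 2 were at least 2-fold lower with gluten and 0 higher. These were Klf3, a repressor of the KLF family, at 36.3 and 90.0 CPM (-1.31 [-1.59 to -1.04]), and Id3, an inhibitor of E proteins, at 26.8 and 61.5 CPM (-1.20 [-1.52 to -0.88]). Igfbp4 was lower, at 60.7 and 106 CPM (-0.80 [-1.02 to -0.59]). The lymph node homing receptor gene Ccr7 was higher, at 209 and 105 CPM (0.98 [0.84 to 1.13]), and Tob1, an inhibitor of proliferation, was higher by 0.74. Of this list, 10 genes had intervals below 0 and 4 above. The like shares over all measured genes were not computed, and the median log2 ratio of all measured genes was -0.14. The counts therefore do not show a fall of the list beyond that of other genes.

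Of 15 interleukin 7 axis genes, 12 were measured and 0 were 2-fold apart, with a median log2 ratio of 0.13. Interleukin 7 itself (Il7) had 0 and 5 UMIs in T cells. Between the CD8 gates, the naive-over-effector log2 ratio of Crlf2, the receptor chain for the related cytokine TSLP, was -0.46 [-1.50 to 0.46] with gluten and -1.30 [-2.13 to -0.54] with HC alone. That of Il2rg, the shared receptor chain, was 0.86 [0.35 to 1.35] and 0.19 [-0.20 to 0.57]. Each had an interval that spanned 0 in 1 library. Of 11 sphingosine 1-phosphate genes 5 were measured and 0 were 2-fold apart. Of 13 TCF and LEF partners 10 were measured and 0 were 2-fold apart. Of 10 tissue residence genes 9 were measured and 1 was 2-fold higher, the transcription factor gene Bhlhe40, at 379 and 115 CPM (1.72 [1.60 to 1.84]). Rgs1, a regulator of chemokine receptor signalling, was higher by 0.66.

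Among the 14 immediate early genes, 3 passed 2-fold upward with gluten: Junb (1.00), Fosb (1.72) and Atf3 (1.75), all components of AP-1 or related dimers. Egr2 was 2-fold lower, at 5.96 and 16.5 CPM (-1.47 [-2.19 to -0.81]). The list's median was 0.35. Of 11 effector genes 10 were measured and 0 were 2-fold apart, and the chemokine gene Ccl5 was higher by 0.77 [0.74 to 0.80]. In CD8 cells, genes outside the gates that were lower in naive-gated cells included Bhlhe40 (-1.32 and -3.36), Rgs1 (-2.52 and -1.16) and Id2 (-1.52 and -0.71).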

How the data were processed

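Single-cell suspensions of islets were profiled in 2 libraries, 1 per diet. The authors deposited raw UMI counts for each library, a matrix of genes by barcodes that had not been normalized. Cell Ranger 4.0.0 and mm10 are named per the submitters' processing notes, and the sources used here do not give the annotation release. Of 31053 Ensembl identifiers, 30934 matched a symbol.

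Barcodes under 500 UMIs or 200 genes, or above 20% mitochondrial UMIs, were left out, and the 6% with the highest Scrublet score (scanpy 1.11.5) were removed in each library as doublet candidates. Kept cells held medians of 6397 and 5460 UMIs. Cells were gated on marker UMIs, not clustered. T and B cells needed 2 of their markers, with at most 1 marker of another lineage, under 10% hormone and under 5% acinar UMIs. CD8 cells held Cd8a or Cd8b1 and no Cd4, and CD4 cells the reverse, both without Foxp3. Gamma delta, cycling and natural killer cells needed 2 markers. The markers were listed in advance, the thresholds of the gates and the thinning depth were set after seeing the data, and the genes and lists were chosen with earlier results of these data known.

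UMIs were summed per kind and library and divided by the kind's total (CPM). Log2 ratios carry exact conditional binomial intervals, CPM Poisson intervals and shares Clopper-Pearson intervals, all at 95%. Against a count of 0 a floor of 3 UMIs over the group was used. Genes with at least 50 UMIs in the group with the higher CPM counted as measured. The calculation was tested on simulated data. Named genes were the 8 members, the 3 most similar genes of each by correlation, of which the text prints the leading ones, list genes whose T cell interval between diets lay beyond 0.5, and up to 4 genes a list with the largest difference between the CD8 gates, of which genes of the gates are not reported. Some named genes are not reported here. The naive gate of CD8 cells was set against a list of 8 effector genes, that of CD4 cells against 9 memory or helper genes, and that of the other T cells against both. Alternatives were 9 settings of filters, gates, scaling and thresholds and 3 more chosen after seeing the data.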

Additional observations from a re-analysis of the deposited data

Results flagged for a closer look

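Klf2 stood on opposite sides between the diets in 2 pairs of kinds, with intervals that excluded 0 on both sides. Its log2 ratio, HC with gluten over HC alone, was 0.56 in naive-gated and -0.84 in effector-gated CD8 cells. In T cells without Cd4 or Cd8 UMIs it was 0.47 in naive-gated and -0.28 in memory-gated cells. With the naive gate narrowed to 1 marker the CD8 value was 0.42 or 0.82, depending on the marker.

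Cd69 did the same in CD8 cells, at 0.83 in naive-gated and -0.74 in effector-gated cells, with 0.70 or 1.01 in naive-gated cells when the gate was narrowed to 1 marker. Cd69 also lay on opposite sides in B cells (-0.25) and T cells (0.19). None of these differences between kinds was tested, since each rests on 1 library per diet.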

How the results depend on the processing

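No paired analysis was possible because each diet had 1 library. The count of genes 2-fold lower in T cells with gluten was 3 under the other 9 settings of filters, gate, scaling and threshold and without cycling T cells, and the counts for B over T cells and natural killer over T cells stayed within 1.5 times. In B cells between the diets, 0 genes became 1 with a 1.5-fold threshold, 1 with median-of-ratios scaling, 1 with a minimum of 10 UMIs and 3 with no minimum other than 1 UMI. For naive-gated over effector-gated CD8 cells, 3 genes became 5 with a 1.5-fold threshold, 5 with a minimum of 10 UMIs, 5 with no minimum, 1 when 2 UMIs were needed to admit a cell and 2 or 0 with the naive gate narrowed to 1 marker or the other, alternatives chosen after seeing the data. In the narrower gate that gave 0, the library with gluten held 32 UMIs of Lef1, 25 of Satb1 and 21 of Dapl1 in naive-gated CD8 cells, under the minimum, and the ratios to effector-gated cells were 3.74, 1.09 and 4.63. For CD4 cells, 1 gene became 3 with a minimum of 10 UMIs, 4 with no minimum and 0 when 2 UMIs were needed. Of 545 recomputed ratios of single genes, 519 stayed inside the interval, 24 left it and 2 changed sign although their interval had excluded 0. Both were Klf2 in B over T cells with HC alone (-0.037 without cycling T cells, which was added after seeing the data, and -0.024 as a mean over cells). Sign changes of ratios whose interval spanned 0 were not counted apart. Median-of-ratios scaling removed a shift of 0.33 on the log2 scale from CD4 naive over memory with gluten, -0.12 from B over T with gluten, and -0.13 and -0.26 from natural killer over T. Depth limits naive-gated CD4 cells with gluten (24 cells) and natural killer cells most.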
